A study of Mus musculus with 3 samples.

Results

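Transcripts of 9 genes that govern entry into the cell cycle were examined in mouse epiblast stem cells (EpiSCs): the D-type cyclins Ccnd1, Ccnd2 and Ccnd3, the E-type cyclins Ccne1 and Ccne2, the inhibitors Cdkn1a and Cdkn1b, and the Myc family genes Myc and Mycn. They were a named list, matched by Entrez Gene identifier, namely 12443, 12444 and 12445 for Ccnd1 to Ccnd3, 12447 and 12448 for Ccne1 and Ccne2, 12575 and 12576 for Cdkn1a and Cdkn1b, 17869 for Myc and 18109 for Mycn. All 9 were found among the 17209 genes listed in at least 1 table and among the 12955 compared. EpiSCs are pluripotent and correspond to the postimplantation epiblast. These were of strain 129 at passage 1, per the labels, and had been kept on gelatin in a serum medium with IWR1 and Y27632 (Y27). IWR1 inhibits tankyrases, which stabilises Axin and lowers Wnt signalling, and Y27632 is a protein kinase inhibitor. The IWR1 library came from cells given 2 µM IWR1 for 12 h, the Y27 library from cells given 0.5 µM Y27 for 12 h, and the NT library from cells left overnight with neither agent. The Y27 dose is as labelled, is low for this compound and was not checked. Since every culture had earlier been in both agents, NT is a withdrawal control rather than a never-treated one. A withdrawal step ahead of treatment is neither stated nor denied by the labels.

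Each group was 1 library, so differences rest on single libraries, with no measure of replicate spread and no p-values. Estimated reads summed to 5607725 in IWR1, 5459332 in Y27 and 5767550 in NT. All 27 counts of the 9 genes were whole numbers, between 82 and 1835. For comparison, the median gene of the 12955 had 159 reads in the NT library. Levels within a gene are given as CPM (read counts scaled to a common library size) after TMM scaling, and levels between genes as the deposited FPKM, which is per kilobase of transcript. A range in brackets is an exact 95% interval and covers counting error only. A log2 difference was taken after adding 1 CPM to each level.

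Of the 8 epiblast stem cell markers used, among them Pou5f1 and Sox2, all were listed in every library, with summed levels of 3534 CPM in IWR1, 2805 CPM in Y27 and 3155 CPM in NT. Single markers went both ways: Sox2, Fgf5, Otx2, Dnmt3b and Utf1 were higher in IWR1 than in NT, and Pou5f1, Nanog and Lin28a lower. Of the 6 streak and mesoderm markers, Mixl1 was not listed in IWR1, and the sums were 467 CPM in IWR1, 1985 CPM in Y27 and 1970 CPM in NT. T alone gave most of these sums, at 364 CPM in IWR1, 1652 CPM in Y27 and 1688 CPM in NT. The 6 fibroblast markers summed to 71.6 CPM in IWR1, 56.3 CPM in Y27 and 116 CPM in NT, with Postn not listed in IWR1. The 5 neural markers summed to 66.4, 49.6 and 57.3 CPM in IWR1, Y27 and NT, nearly all of it Map2 and Tubb3, while Pax6 was listed in Y27 alone and Neurog2 in IWR1 alone. The 4 endoderm markers summed to 13.2, 12.6 and 17.0 CPM, with Sox17 listed in no library and Gata4 in Y27 and NT alone. Axin2, a feedback gene that Wnt signalling induces, stood at 39.5 CPM in IWR1, 167 CPM in Y27 and 173 CPM in NT. Tagln stood at 173 CPM in IWR1, 73.1 CPM in Y27 and 244 CPM in NT, and Jun at 41.3, 23.1 and 49.7 CPM. Both were lowest in Y27, and the part of the Y27 dose in this was not tested.

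D-type cyclins bind CDK4 and CDK6 in G1 and begin the phosphorylation of the retinoblastoma protein, which frees E2F factors to switch on the E-type cyclins and the genes of DNA replication. E-type cyclins bind CDK2 and drive the entry into S phase, while p21 (Cdkn1a) and p27 (Cdkn1b) bind and inhibit these kinases. Myc and N-Myc (Mycn) are transcription factors that pair with Max on E-box sequences and raise genes of ribosome and nucleotide synthesis. Pluripotent cells are known for a short G1 phase and for a high level of Myc family proteins.

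Measured per length, Cdkn1a, Mycn and Ccnd3 were the most abundant of the 9 transcripts and Ccnd2 and Ccne2 the least abundant. In NT the order was Cdkn1a at 106 FPKM, Ccnd3 at 89.0, Mycn at 74.1, Ccnd1 at 49.2, Ccne1 at 38.8, Myc at 29.9, Cdkn1b at 16.5, Ccnd2 at 6.95 and Ccne2 at 4.67 FPKM. No neighbours in that order had overlapping counting intervals. In IWR1 the first place belonged to Mycn, at 126 FPKM, above 96.4% of listed genes. In that library Ccnd3 and Cdkn1a, at 67.9 and 66.2 FPKM, had overlapping intervals, as did Ccnd1 with Myc (35.9 and 33.3 FPKM) and Ccne2 with Ccnd2 (7.97 and 6.20 FPKM). In Y27 Cdkn1a led at 95.8 FPKM, and the intervals of Mycn and Ccnd3 (70.9 and 66.0 FPKM), of Ccnd1 and Ccne1 (37.7 and 37.4 FPKM) and of Ccne2 and Ccnd2 (11.1 and 8.86 FPKM) overlapped.

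**Figure D1:**
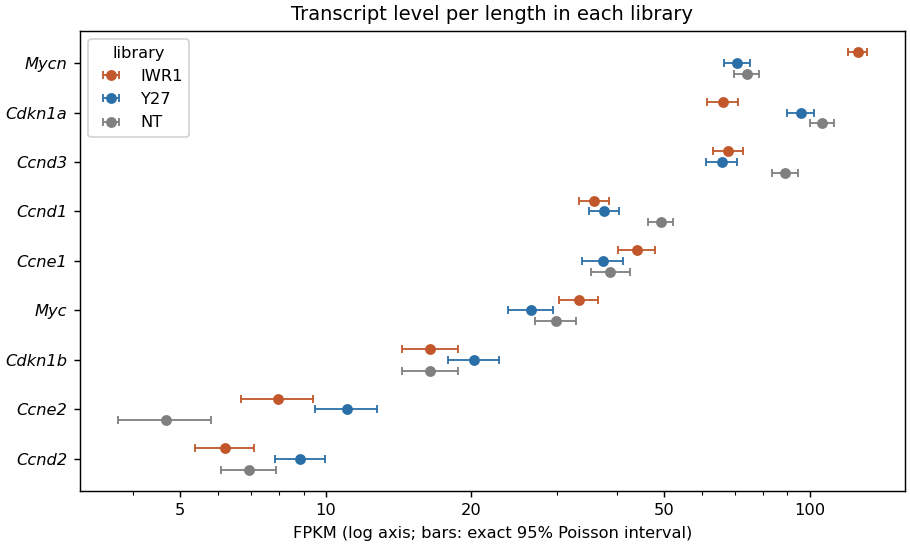
Deposited FPKM of the 9 genes in the IWR1, Y27 and NT libraries, on a log axis, with exact 95% Poisson intervals; genes run from the highest mean at the top. Mycn stands at 126 FPKM in IWR1, against 70.9 in Y27 and 74.1 in NT, and Ccne2 and Ccnd2 lie at the bottom in every library.

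Few of the 9 genes were 2-fold apart between libraries. In IWR1 over NT, 0 of 9 were at least 2-fold higher or lower, where 4.55% of all genes compared were (2.29% higher and 2.25% lower). In Y27 over NT, 1 of 9 was, Ccne2, where 6.92% of all genes were (5.58% higher and 1.34% lower). In IWR1 over Y27, 0 of 9 were, where 4.28% of all genes were (1.38% higher and 2.9% lower). At 1.5-fold, 3 of 9 passed in IWR1 over NT (17.2% of all genes), with Mycn and Ccne2 higher (10.8% of all genes) and Cdkn1a lower (6.37%). In Y27 over NT 1 of 9 passed (20.4%), Ccne2, which was higher (14.9%, with 5.53% lower). In IWR1 over Y27 1 of 9 passed (13.3%), Mycn, which was higher (5.06%, with 8.21% lower). Among 9 genes, counts this small say nothing about the group as a whole. The medians of the 9 log2 differences were -0.03, -0.12 and -0.03 in that order of comparisons, beside -0.00, -0.02 and 0.00 over all genes. The counting interval of the fold left out 1 for 5 of 9 genes in IWR1 over NT (39.4% of all genes), 2 higher (20.3%) and 3 lower (19.1%). It did so for 7 of 9 in Y27 over NT (44.8%), 2 higher (22%) and 5 lower (22.9%). It did so for 7 of 9 in IWR1 over Y27 (32.4%), 3 higher (16.3%) and 4 lower (16.1%). A narrow counting interval comes with many reads, and 8 of the 9 genes had more reads in NT than the median gene.

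Differences from NT followed the base composition of the transcripts across the whole table, and this touches several of the 9 genes. Among the 527 genes compared whose transcripts had under 40% GC, the median log2 difference was 0.56 in IWR1 over NT and 0.90 in Y27 over NT. In Y27 over NT, 41.8% of these genes were at least 2-fold higher, against 5.58% of all genes. At 55% to 60% GC (2718 genes) the medians were -0.15 and -0.20. In IWR1 over Y27 the medians of the same classes were -0.30 and 0.06. Most differences below are therefore also given after removal of a smooth trend on transcript length and GC content, called trend-corrected. What sets this trend was not tested. In Y27 over NT, several genes whose fold interval left out 1 had trend-corrected log2 differences near 0. These were 0.01 for Ccne2, 0.02 for Ccnd2, 0.01 for Cdkn1a, -0.04 for Myc and 0.06 for Mycn, whereas Ccnd1 and Ccnd3 had -0.42 and -0.25.

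**Figure D2:**
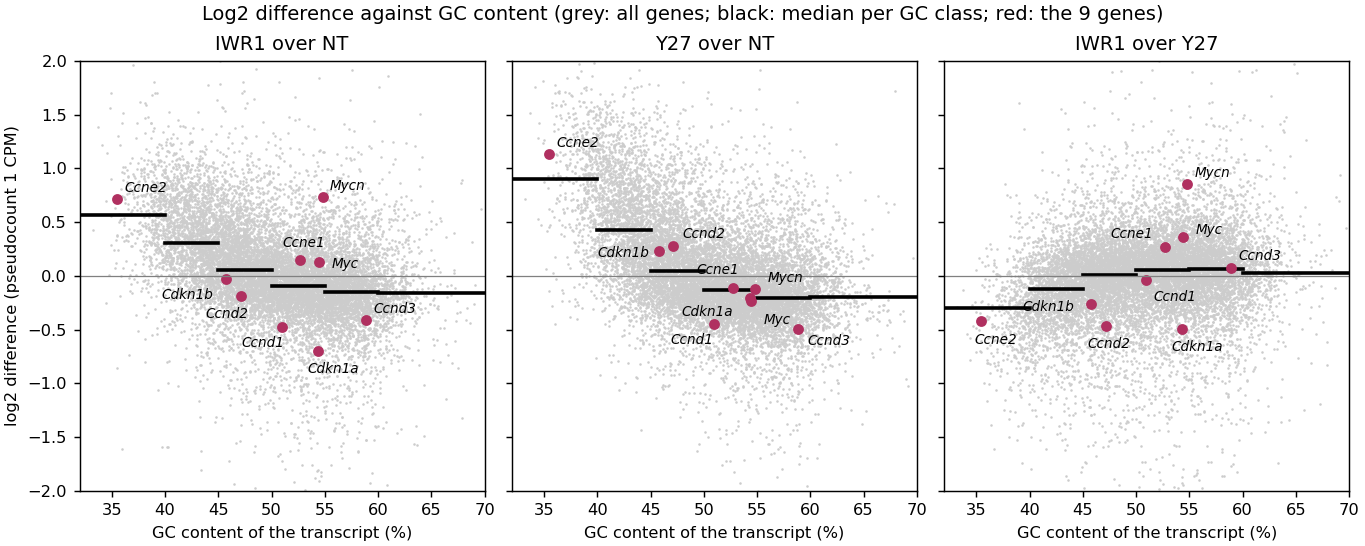
Log2 difference (vertical axis) against the GC content of the transcript in percent (horizontal axis) for IWR1 over NT, Y27 over NT and IWR1 over Y27; grey points are all genes compared with a GC value, black bars the medians of 6 GC classes and red points the 9 genes, with genes beyond the frame (-2 to 2, and 32% to 70% GC) not drawn. Ccne2, at 35.5% GC, lies near the bar of its class in each panel, while Mycn, at 54.8% GC, lies well above the bars of genes of like GC in both IWR1 panels.

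Among the D-type cyclins, Ccnd1 and Ccnd3 were lower in both treated libraries than in NT, whereas Ccnd2 was highest in Y27. The sizes for Ccnd1 and Ccnd3 were alike before trend correction, and those for Ccnd3 were smaller after it. Ccnd1, the best known D-type cyclin gene and a Wnt target in human colon cancer cells, had 770 reads (138 CPM) in IWR1, 786 reads (141 CPM) in Y27 and 1087 reads (192 CPM) in NT. Both treated libraries lay below NT, and the intervals of the treated libraries overlapped. It was 1.40-fold lower (1.27 to 1.54) in IWR1 and 1.37-fold lower (1.24 to 1.5) in Y27. Its log2 differences of -0.48 and -0.45 were -0.45 and -0.42 when trend-corrected. The direct fold of IWR1 over Y27 was 1.02-fold lower (0.926 to 1.13), an interval that holds 1, with a trend-corrected log2 difference of -0.06. Axin2 was 4.23-fold lower (3.65 to 4.92) in that comparison, with -2.09 trend-corrected. As in any bulk RNA, fewer cells with a transcript and less of it per cell cannot be told apart here.

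Ccnd3, the most abundant D-type cyclin transcript in these cells, had 758 reads (135 CPM) in IWR1, 716 reads (128 CPM) in Y27 and 1022 reads (181 CPM) in NT. As for Ccnd1, NT was apart and highest and the treated libraries overlapped. The folds were 1.34-fold lower (1.21 to 1.47) in IWR1 and 1.41-fold lower (1.28 to 1.55) in Y27. Its transcript is 58.9% GC, and trend-corrected log2 differences were -0.22 and -0.25, against -0.41 and -0.49 before. It was 1.06-fold higher (0.951 to 1.17) in IWR1 than in Y27, with 0.00 trend-corrected. Of the 6 fibroblast markers, 6 were lower in IWR1 than in NT and 5 lower in Y27 than in NT (sums of 71.6, 56.3 and 116 CPM in IWR1, Y27 and NT), and their part in the values of Ccnd1 and Ccnd3 was not tested.

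Ccnd2, a D-type cyclin that many tissues use in place of Ccnd1, had 203 reads (36.3 CPM) in IWR1, 282 reads (50.6 CPM) in Y27 and 234 reads (41.4 CPM) in NT. Y27 was the highest library and IWR1 the lowest. It was 1.39-fold lower (1.16 to 1.68) in IWR1 than in Y27, a log2 difference of -0.47 and of -0.40 trend-corrected. Against NT it was 1.14-fold lower (0.942 to 1.38) in IWR1 and 1.22-fold higher (1.02 to 1.46) in Y27, log2 differences of -0.19 and 0.28. Trend-corrected these were -0.36 and 0.02, so that the correction made the difference in IWR1 larger and that in Y27 smaller. Ccnd3 made up most of the D-type cyclin transcript in each library. It held 61.7% of the summed D-type FPKM in IWR1, 58.6% in Y27 and 61.3% in NT, and Ccnd2 held 5.63%, 7.88% and 4.79%. The summed FPKM of the 3 genes was 110, 112 and 145 in IWR1, Y27 and NT. Within each library the ratio of Ccnd1 to Ccnd3 per length, which does not depend on the scaling, was 0.533 (0.482 to 0.590) in IWR1, 0.576 (0.520 to 0.638) in Y27 and 0.558 (0.512 to 0.609) in NT, with all 3 intervals overlapping. That ratio sets a transcript of 50.9% GC against one of 58.9% GC. Trend-corrected, Ccnd1 lay further below NT than Ccnd3 in both treated libraries. The same ratio of Ccnd2 to Ccnd3 was 0.0924 (0.0788 to 0.108) in IWR1, 0.136 (0.118 to 0.156) in Y27 and 0.0790 (0.0683 to 0.0912) in NT, with Y27 above both others. It sets a transcript of 47.1% GC against one of 58.9% GC. In Y27 over NT the log2 differences of Ccnd2 and Ccnd3, 0.28 and -0.49, were 0.02 and -0.25 trend-corrected. In IWR1 over Y27, -0.47 and 0.08 became -0.40 and 0.00.

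**Figure D3:**
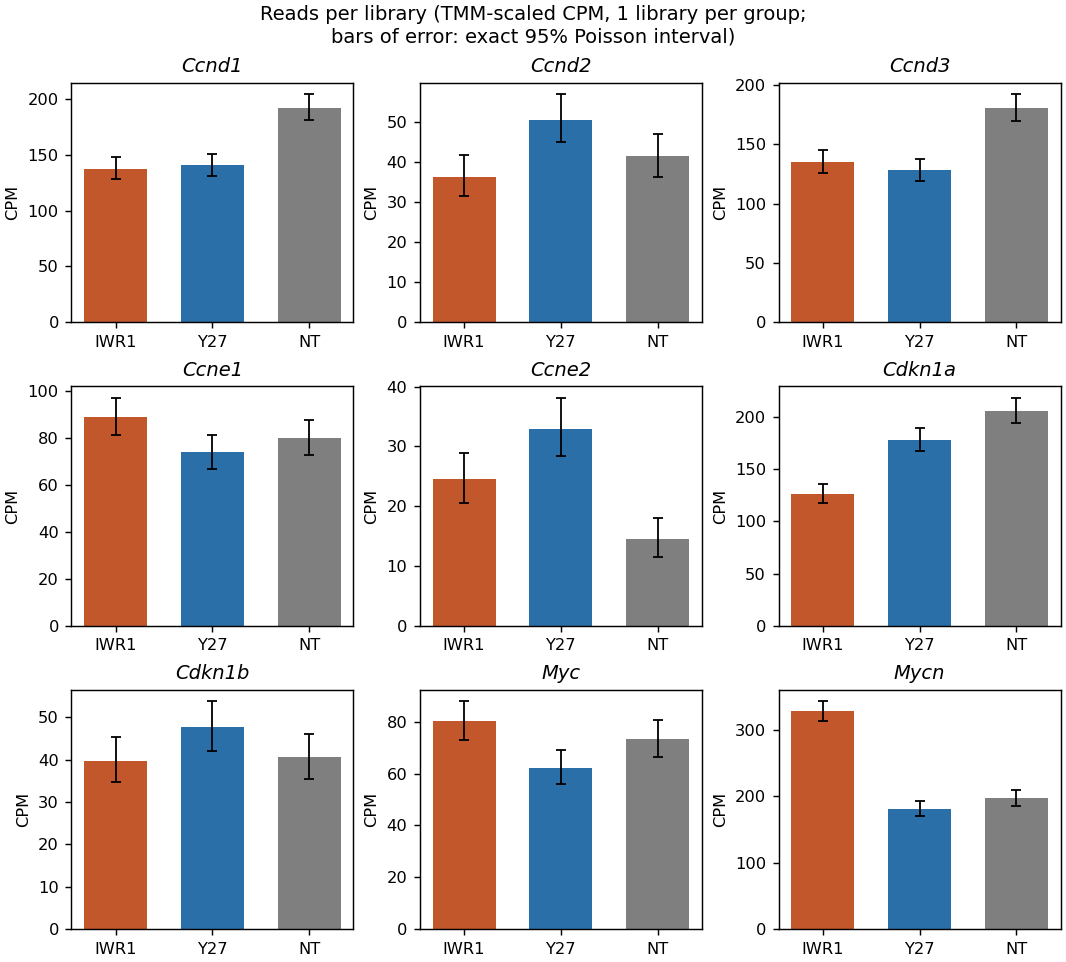
TMM-scaled CPM of each of the 9 genes in the IWR1, Y27 and NT libraries (1 library each), with exact 95% Poisson intervals; each panel has its own axis, starting at 0. Ccnd1 and Ccnd3 are highest in NT, Ccne2 is lowest in NT, Cdkn1a is lowest in IWR1 and Mycn is highest in IWR1.

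The E-type cyclins differed from each other. Ccne1, which carries most E-type transcript in these cells, had 498 reads (89.0 CPM) in IWR1, 412 reads (73.9 CPM) in Y27 and 452 reads (80.0 CPM) in NT. IWR1 was highest and Y27 lowest, and neighbouring intervals overlapped. The fold of IWR1 over Y27 was 1.21-fold higher (1.06 to 1.38). Against NT the folds were 1.11-fold higher (0.978 to 1.27) in IWR1 and 1.08-fold lower (0.945 to 1.24) in Y27, both with intervals that hold 1. Trend-corrected log2 differences were 0.28 in IWR1 over NT, 0.06 in Y27 over NT and 0.19 in IWR1 over Y27.

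Ccne2, the second E-type cyclin, had 137 reads (24.5 CPM) in IWR1, 184 reads (33.0 CPM) in Y27 and 82 reads (14.5 CPM) in NT. The 3 intervals of its level were 20.6 to 28.9, 28.4 to 38.1 and 11.5 to 18.0 CPM, so that NT was the lowest library and Y27 and IWR1 overlapped slightly. It was 2.27-fold higher (1.74 to 2.99) in Y27 than in NT and 1.69-fold higher (1.27 to 2.25) in IWR1 than in NT. The direct fold of IWR1 over Y27 was 1.35-fold lower (1.07 to 1.69), an interval without 1. Its transcript has the lowest GC content of the 9, at 35.5%. Trend-corrected, its log2 differences of 1.13 in Y27 over NT, 0.72 in IWR1 over NT and -0.42 in IWR1 over Y27 were 0.01, 0.02 and -0.01. The trend for a transcript of its length and GC content thus gave nearly the whole of each difference. The per-length ratio of Ccne2 to Ccne1 was 0.182 (0.150 to 0.221) in IWR1, 0.298 (0.249 to 0.355) in Y27 and 0.121 (0.0946 to 0.154) in NT. That ratio is free of scaling but sets a GC-poor transcript against one of 52.7% GC.

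The CDK inhibitors also parted. Cdkn1a, which encodes p21 and is a classical target of p53, had 709 reads (127 CPM) in IWR1, 997 reads (179 CPM) in Y27 and 1168 reads (207 CPM) in NT. The intervals of the 3 levels did not overlap, with IWR1 lowest and NT highest. It was 1.63-fold lower (1.49 to 1.79) in IWR1 than in NT, and 4.54% of all genes compared had a lower log2 difference. It was 1.41-fold lower (1.28 to 1.56) in IWR1 than in Y27 and 1.16-fold lower (1.06 to 1.26) in Y27 than in NT. Trend-corrected log2 differences were -0.54 in IWR1 over NT and -0.57 in IWR1 over Y27, against -0.70 and -0.49 before. In Y27 over NT the log2 difference of -0.21 was 0.01 trend-corrected. Of the 6 streak and mesoderm markers, 6 were lower in IWR1 than in either other library (sums of 467 CPM against 1985 CPM in Y27 and 1970 CPM in NT), and their part in the Cdkn1a and Mycn values was not tested.

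Cdkn1b, which encodes p27, had smaller differences. It had 222 reads (39.7 CPM) in IWR1, 266 reads (47.7 CPM) in Y27 and 229 reads (40.5 CPM) in NT, and all 3 intervals overlapped. The fold of IWR1 over NT was 1.02-fold lower (0.846 to 1.23) and that of Y27 over NT 1.18-fold higher (0.983 to 1.41), and differences inside these intervals were not detectable at this depth. In IWR1 over Y27 it was 1.20-fold lower (1.00 to 1.44). Trend-corrected log2 differences were -0.13, 0.10 and -0.26 in IWR1 over NT, Y27 over NT and IWR1 over Y27. The per-length ratio of Cdkn1a to Cdkn1b was 4.01 (3.45 to 4.69) in IWR1, 4.72 (4.12 to 5.42) in Y27 and 6.42 (5.57 to 7.43) in NT. The interval of NT lay above those of both treated libraries, which overlapped each other. This ratio sets a transcript of 54.4% GC against one of 45.8% GC. In Y27 over NT the log2 differences of Cdkn1a and Cdkn1b, -0.21 and 0.23, were 0.01 and 0.10 trend-corrected. In IWR1 over NT, -0.70 and -0.03 became -0.54 and -0.13.

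Of the Myc family, Mycn was higher in IWR1 alone and Myc differed little. Mycn had 1835 reads (328 CPM) in IWR1, 1008 reads (181 CPM) in Y27 and 1114 reads (197 CPM) in NT. IWR1 stood far above the other libraries, whose intervals of 170 to 192 CPM in Y27 and 186 to 209 CPM in NT overlapped. It was 1.66-fold higher (1.54 to 1.79) in IWR1 than in NT and 1.81-fold higher (1.68 to 1.96) in IWR1 than in Y27. Of all genes compared, 93.2% and 98.0% had a lower log2 difference in these comparisons. The log2 differences of 0.73 and 0.86 were 0.88 and 0.79 trend-corrected, so the direction was kept in both. In Y27 over NT Mycn was 1.09-fold lower (1.00 to 1.19), a log2 difference of -0.12 that was 0.06 trend-corrected.

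Myc had 449 reads (80.2 CPM) in IWR1, 348 reads (62.4 CPM) in Y27 and 415 reads (73.4 CPM) in NT. Y27 was the lowest library, and only the intervals of IWR1 and Y27 stood apart. It was 1.29-fold higher (1.12 to 1.48) in IWR1 than in Y27, 1.09-fold higher (0.954 to 1.25) in IWR1 than in NT and 1.18-fold lower (1.02 to 1.36) in Y27 than in NT. The trend-corrected log2 differences were 0.29, 0.27 and -0.04. Myc is a Wnt target in human colon cancer cells, and Axin2, for comparison, was 4.38-fold lower (3.78 to 5.09) in IWR1 than in NT. The per-length ratio of Mycn to Myc was 3.78 (3.40 to 4.2) in IWR1, 2.68 (2.37 to 3.03) in Y27 and 2.48 (2.21 to 2.78) in NT, with the interval of IWR1 above both others. Mycn thus held 79.0% of the summed FPKM of the pair in IWR1, 72.8% in Y27 and 71.3% in NT.

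Promoters from RefSeq (GRCm38.p6, another build than the mm8 named in the submitters' processing notes) were on hand for 5 of the 9 genes, Ccnd3, Ccne1, Cdkn1a, Cdkn1b and Mycn, each as 300 bases around a start. They were searched on both strands for the E-box CACGTG, for the E2F words TTTCGCGC and TTTGGCGC, and for the TCF/LEF words ATCAAAG and TTCAAAG. Of 32851 promoters of that length, 7.15% held the E-box, 0.813% an E2F word and 8.65% a TCF/LEF word. Mycn alone of the 5 held any, with 3 E2F matches and 1 TCF/LEF match (TTCAAAG, 14 bases before the RefSeq start). The 78 bases next to that start, which hold the TTCAAAG match and are not printed, lie inside a GENCODE transcript. TTTGGCGC began 183 and 168 bases before the start, and TTTCGCGC lay on the opposite strand, sharing 4 bases with the match at 183. The stretches below belong to the genes with the largest positive and negative log2 difference among the 9 in IWR1 over NT, Mycn and Cdkn1a. They are printed 5′ to 3′ on the gene's strand, with E2F matches in capitals, and stop where a GENCODE transcript starts. The Mycn stretch is chr12:12941915-12942086 (minus strand, 172 bases), and that of Cdkn1a is chr17:29093519-29093768 (plus strand, 250 bases), before the second of its 2 listed starts. A match is a run of letters and not a shown binding site.
Mycn: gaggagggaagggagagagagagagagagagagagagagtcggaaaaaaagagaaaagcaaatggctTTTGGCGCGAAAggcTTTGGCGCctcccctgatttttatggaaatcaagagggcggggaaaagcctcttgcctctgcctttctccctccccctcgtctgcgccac
Cdkn1a: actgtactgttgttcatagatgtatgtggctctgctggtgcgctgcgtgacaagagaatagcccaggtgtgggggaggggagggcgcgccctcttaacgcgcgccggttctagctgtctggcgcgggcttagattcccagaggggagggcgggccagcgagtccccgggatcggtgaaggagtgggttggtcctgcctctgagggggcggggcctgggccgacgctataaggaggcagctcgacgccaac

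**Figure D4:**
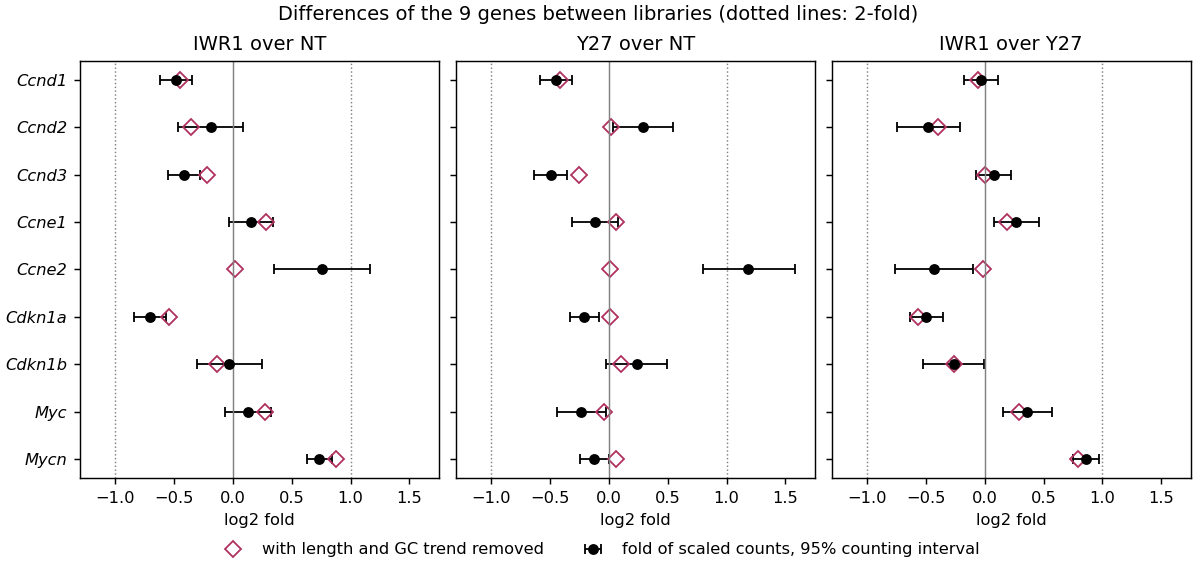
Log2 fold of scaled counts (black points) with exact 95% counting intervals for the 9 genes in the 3 comparisons, with the trend-corrected log2 difference as open diamonds and 2-fold as dotted lines. The diamonds of Ccne2 sit near 0 in all panels, whereas those of Mycn in IWR1 over NT and IWR1 over Y27, at 0.88 and 0.79, stay far from it.

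The partners of these genes were taken from lists. Counts past 2-fold in a list are to be read beside the shares of all genes, which were 2.29% higher and 2.25% lower in IWR1 over NT, 5.58% and 1.34% in Y27 over NT, and 1.38% and 2.9% in IWR1 over Y27. Of 21 CDKs, other cyclins and their regulators compared, 0 were 2-fold apart in any comparison, with medians of 0.09 in IWR1 over NT, 0.09 in Y27 over NT and -0.01 in IWR1 over Y27. The trend-corrected medians were -0.05, -0.04 and -0.06 in the same order. Cdk4, the main kinase partner of D-type cyclins by level, was at 368 FPKM in IWR1, 370 FPKM in Y27 and 418 FPKM in NT. Cdk6, its relative, was far lower, at 9.72, 7.70 and 5.60 FPKM, and was 1.7-fold higher (1.28 to 2.28) in IWR1 than in NT, a log2 difference of 0.73 and of 0.60 trend-corrected. Cdk2, the partner of E-type cyclins, was 1.13-fold lower (0.990 to 1.29) in IWR1 than in NT and 1.01-fold lower (0.892 to 1.15) in Y27 than in NT, with trend-corrected log2 differences of -0.15 and 0.02. Skp2, which marks p27 for destruction, was at 64.9 CPM in IWR1, 69.0 CPM in Y27 and 67.4 CPM in NT. Of the 15 genes of G1 cyclin, p27 and Myc turnover, 0 were 2-fold apart. Gsk3b, a kinase that marks D-type cyclins and Myc, was 1.53-fold higher (1.35 to 1.72) in Y27 than in NT on partly fractional counts. Its log2 difference of 0.60 was 0.15 trend-corrected.

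Of the other CDK inhibitors, Cdkn1c (p57) had 1 read in IWR1, 3 in Y27 and 4 in NT, and 4 of 6 were compared. Their medians were -0.47, -0.46 and -0.22 in IWR1 over NT, Y27 over NT and IWR1 over Y27, and -0.34, -0.19 and -0.32 trend-corrected. Cdkn2d, an inhibitor of CDK4 and CDK6, was 1.67-fold lower (1.21 to 2.33) in IWR1 and 1.49-fold lower (1.09 to 2.06) in Y27 than in NT. Its log2 differences of -0.69 and -0.54 were -0.49 and -0.28 trend-corrected. Cdkn2a, outside the rule for naming genes and given because it alone was 2-fold lower, had 2 reads in IWR1, 6 in Y27 and 11 in NT.

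Of the 17 Rb and E2F family genes, 1 was at least 2-fold higher in Y27 over NT and 0 in the other comparisons, and 0 were 2-fold lower. That gene was Rb1, the retinoblastoma gene, 2.33-fold higher (1.74 to 3.14) in Y27 and 1.68-fold higher (1.23 to 2.30) in IWR1 than in NT. Its transcript is 41.2% GC, and its log2 differences of 1.15 and 0.70 were 0.48 and 0.25 trend-corrected. E2f8, an E2F that represses, was 1.67-fold higher (1.31 to 2.15) in IWR1 than in NT and 1.52-fold higher (1.19 to 1.94) than in Y27, with trend-corrected log2 differences of 0.72 and 0.57. Of the 23 G1/S genes that E2F controls, 1 was 2-fold higher in Y27 over NT, Pola1, a subunit of DNA polymerase alpha. The medians of the 23 were -0.06, -0.10 and 0.05, and -0.01, -0.06 and 0.05 trend-corrected. In IWR1 over NT Pola1 was just under the threshold, at 0.99, and at 0.52 trend-corrected. Its fold there, without the added 1 CPM, was 2.04-fold higher (1.61 to 2.60). In Y27 it was 2.89-fold higher (2.30 to 3.64), and its log2 difference was 1.48 before and 0.77 after trend correction.

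Among the Myc partners and antagonists, Mga, Mycl and Mxd1 had the largest log2 differences in IWR1 over NT. Mycl, the third Myc family gene, had 463 reads (82.7 CPM) in IWR1, 725 reads (130 CPM) in Y27 and 897 reads (159 CPM) in NT, and was 1.92-fold lower (1.71 to 2.15) in IWR1 than in NT and 1.57-fold lower (1.40 to 1.77) than in Y27. Its order was the reverse of that of Mycn between IWR1 and NT. The trend-corrected log2 differences were -0.81 and -0.70. Max, the shared partner, was 1.08-fold lower (0.942 to 1.24) in IWR1 and 1.09-fold lower (0.950 to 1.25) in Y27 than in NT, with trend-corrected log2 differences of -0.06 and -0.04. Mxd1, which competes with Myc for Max, was 1.95-fold lower (1.26 to 3.08) in IWR1 than in NT, on 32 reads in IWR1 and 63 in NT, a log2 difference of -0.85 and of -0.86 trend-corrected. Of the 11 partners and antagonists, 1 was at least 2-fold higher than NT in each treated library and 0 were 2-fold lower. It was Mga, a large Max partner, with log2 differences of 1.01 in IWR1 and 1.17 in Y27 that were 0.33 and 0.12 trend-corrected.

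Of the 28 Myc target genes, 0 were 2-fold apart in any comparison. In IWR1 over Y27, 27 of 28 had a positive log2 difference, where 50.1% of all genes did, and for 22 of them the counting interval lay above 1, where it did for 16.3% of all genes. Most of these genes have many reads and so narrow intervals, and in Y27 over NT the interval lay above 1 for 7 and below 1 for 18 of the 28. The median in IWR1 over Y27 was 0.25, beside 0.00 over all genes, and 0.23 trend-corrected with 26 of 28 positive. Srm, which makes spermidine, was 1.47-fold higher (1.34 to 1.61), Shmt2, an enzyme of one-carbon metabolism, 1.47-fold higher (1.34 to 1.62), and Odc1, which makes putrescine, 1.35-fold higher (1.29 to 1.41) on partly fractional counts. Trend-corrected log2 differences of these genes were 0.48, 0.49 and 0.37. Their levels in IWR1 were nearer to NT than those in Y27 were. In IWR1 over NT they were 1.14-fold, 1.02-fold and 1.00-fold higher, and in Y27 over NT 1.29-fold, 1.45-fold and 1.35-fold lower. Other genes of the list were higher than NT in both treated libraries. Log2 differences were 0.85 in IWR1 and 0.56 in Y27 for Wdr43, and 0.84 and 0.76 for Ncl. They were 0.75 and 0.50 for Nop58, and 0.64 and 0.63 for Npm1. Trend-corrected these were 0.63 and 0.25, 0.36 and 0.02, 0.46 and 0.10, and 0.48 and 0.42. Of the 28, 19 were above 0 in IWR1 over NT and 8 in Y27 over NT, where 49.7% and 48.2% of all genes were. In IWR1 over Y27 the gene below 0 was Tert, the telomerase gene, at 6.97 CPM in IWR1 and 9.32 CPM in Y27. Against NT the list's median was 0.05 in IWR1 and -0.24 in Y27, and 0.16 and -0.09 trend-corrected. Of the 18 p53 target genes compared, 1 was at least 2-fold higher in IWR1 over NT and 2 in Y27 over NT, where 2.29% and 5.58% of all genes were. None was 2-fold lower, and the medians were -0.02, -0.23 and 0.04. In Y27 over NT 12 of 18 were below 0 and 6 above, where 48.2% of all genes were above 0. The trend-corrected medians were -0.04, -0.12 and 0.08. After that correction 4 of 18 were above 0 in Y27 over NT, where 6008 of 12825 genes were. The genes past 2-fold were Pmaip1, a gene of apoptosis, in both, and Trp53inp1 in Y27. Pmaip1 was 2.06-fold higher (1.74 to 2.45) in IWR1 and 2.12-fold higher (1.79 to 2.51) in Y27, with trend-corrected log2 differences of 0.74 and 0.66. Trp53inp1, which promotes cell death and autophagy, was 2.40-fold higher (2.21 to 2.61) in Y27, a log2 difference of 1.26 that was 0.25 trend-corrected. After trend correction, 0 genes of the 8 lists were 2-fold apart in any comparison. Of the 12825 genes with a corrected value, 166 were higher and 263 lower in IWR1 over NT, 202 and 148 in Y27 over NT, and 167 and 357 in IWR1 over Y27. Trp53 itself was at 615 CPM in IWR1, 524 CPM in Y27 and 637 CPM in NT.

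**Figure D5:**
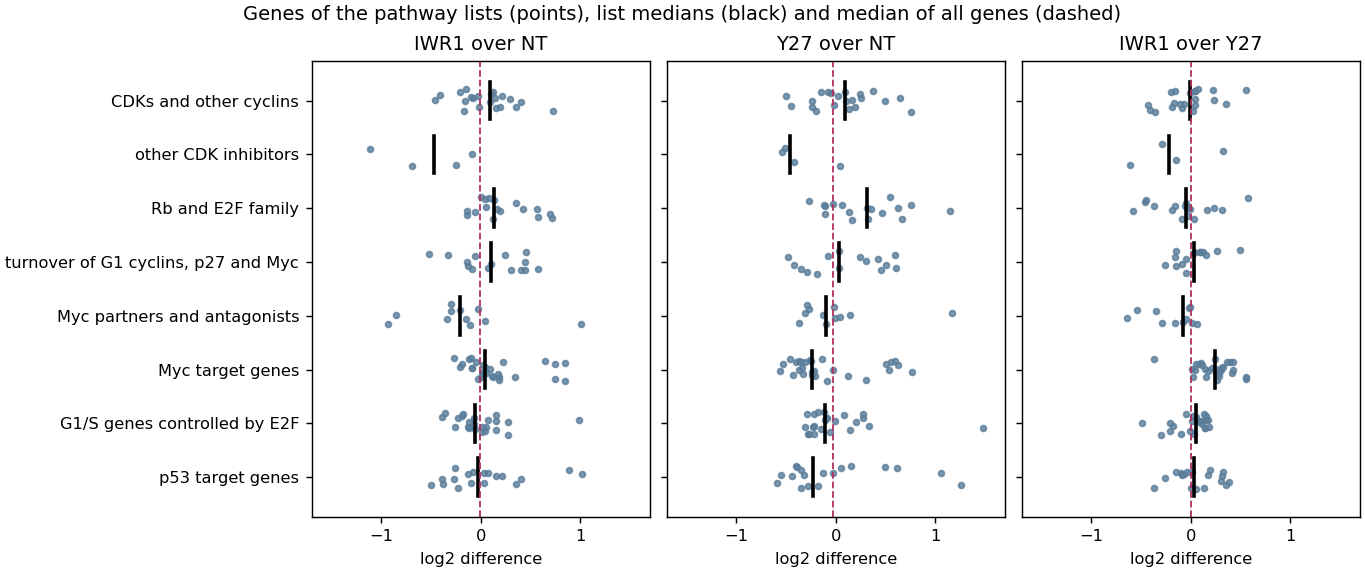
Log2 difference of every compared gene of the 8 pathway lists (points, spread vertically for sight) in IWR1 over NT, Y27 over NT and IWR1 over Y27, with list medians as black bars and the median of all genes as a dashed line. In IWR1 over Y27, 27 of 28 Myc target genes lie right of 0, around a median of 0.25.

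Genes of like pattern were sought by the Euclidean distance over the log2 differences IWR1 over NT and Y27 over NT, which share NT, among 8148 other genes with whole counts and at least 5 CPM in every library. With 3 libraries the measure is coarse. Mycn had the fewest neighbours, with 5 genes within 0.1, and the nearest were Tuba4a at 0.05 and Xylt1 at 0.06. Cdkn1a had 24 within that distance, with Arhgap22 and Efhd2 nearest, and Ccne2 had 34, with Map3k2 and Rb1 nearest. Ccnd2 had 52, with Hecw2 and Cebpzos nearest. Ccnd1 had 108, and Ccnd3 had 133 (Tmem120b and Pofut2 nearest). Cdkn1b, Myc and Ccne1 had 180, 188 and 263, with Mbd6 and Fgfr1op2, Acvr1 and Ears2, and Crybg3 and Zfas1 as their nearest genes.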

How the data were processed

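The data were gene tables from RNA-seq of 3 EpiSC libraries, 1 in each labelled group. Per the file headers, the columns are length, expected count and FPKM, in rows of Entrez Gene identifiers. The deposited expected counts are reads estimated for each gene, without scaling. The deposited FPKM values divide these by transcript length and library size. For genes with over 50 counts, an FPKM worked out from the other columns came within 2% of the deposited one in 93.9% (IWR1), 93.8% (Y27) and 94.0% (NT) of cases. The submitters' processing notes name Bowtie 0.12.2 and mm8; how reads were assigned to genes is not stated there. Symbols came from RefSeq (GRCm38.p6).

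Library sums were 5607725 (IWR1), 5459332 (Y27) and 5767550 (NT). A gene missing from a table was taken as 0. Counts were scaled with TMM factors of 0.998, 1.02 and 0.980 (edgeR 4.0.16, R 4.3.3). The comparisons took the 12955 genes whose average over the 3 libraries reached 1 CPM, a pseudocount of 1 CPM and a 2-fold threshold. Folds carry exact conditional binomial 95% intervals on counts rounded to whole numbers, and levels exact Poisson intervals. Group tests need replicates and were not made. GC content came from GENCODE transcripts for 99.0% of the genes, and the trend was a polynomial of degree 3 in GC content and the log2 of length, fitted by least squares. The 9 genes, the lists and the tests were chosen with earlier results of these data known. Named genes were the 9, up to 3 per list and comparison with the largest absolute log2 difference and at least 30 reads in the higher library, a fixed set of partner and marker genes, and the 2 nearest in pattern, which for Ccnd1 are not reported here. Alternatives were a pseudocount of 0.1 or 5 CPM, other scalings (upper quartile, library total, DESeq2 1.42.0), other level filters (none, 5 CPM), thresholds of 1.5-fold and 3-fold, the FPKM values with a pseudocount of 0.1 FPKM, and the trend. The fold intervals and the 2-fold call were tested on simulated Poisson counts with equal library sizes. Scaling, trend removal and the promoter search were not tested in this way. Scripts ran in Python 3.11.15 with scipy 1.17.1, pandas 2.3.3, numpy 2.4.6 and, for figures, matplotlib 3.10.9.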

Additional observations from a re-analysis of the deposited data

How the results depend on the processing

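Of the 9 genes, Ccne2 in Y27 over NT was the 1 past 2-fold. The count fell to 0 with a pseudocount of 5 CPM, with a 3-fold threshold and with the length and GC trend removed. With a 1.5-fold threshold, IWR1 over NT had 2 higher and 1 lower, and IWR1 over Y27 had 1 higher. Over all 27 log2 differences of the 9 genes, 3 changed sign under some setting: with the trend removed, Ccne1, Cdkn1a and Mycn in Y27 over NT had 0.06, 0.01 and 0.06, against -0.11, -0.21 and -0.12. No other setting changed a sign.

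Over all genes, IWR1 over NT had 297 higher and 292 lower. These were 543 and 463 with a pseudocount of 0.1 CPM, 80 and 98 with 5 CPM, 187 and 183 at a mean of at least 5 CPM, 1405 and 825 at 1.5-fold, and 43 and 79 at 3-fold, with 510 higher from FPKM and 166 higher and 263 lower with the trend removed. Y27 over NT had 723 higher and 173 lower. A pseudocount of 0.1 CPM gave 320 lower, one of 5 CPM 341 and 42, a mean of at least 5 CPM 96 lower, 1.5-fold 1931 and 717, 3-fold 80 and 26, and the trend removed 202 and 148. IWR1 over Y27 had 179 higher and 376 lower. These were 311 and 595 with a pseudocount of 0.1 CPM, 53 and 146 with 5 CPM, 91 and 224 at a mean of at least 5 CPM, 655 and 1063 at 1.5-fold, and 35 and 108 at 3-fold, with 271 higher from FPKM. Fewer genes or a stricter or looser rule account by construction for all but the FPKM and trend values. The FPKM setting changed both the unit and the pseudocount (0.1 FPKM in place of 1 CPM), and their parts were not separated. The cause of the trend values was not tested. Taking the highest row of each gene was not run, since each gene had 1 row. No paired analysis was possible because each group had 1 library.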
